A study of Mus musculus with 2 samples.

Results

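The genes that make cholesterol, move it through the cell and export it were compared between cultured stromal cells of Wisp1 knockout and wild-type mice. A total of 30 genes were listed by symbol, and 26 of them had a transcript cluster (the summary of the array's probes for 1 transcript) whose only platform symbol was that gene, among 30142 named genes in all. Msmo1 and Tm7sf2 lay on clusters that list several symbols and are given separately, and Acat2 and Nr1h2 matched no cluster and were not analysed here. The 26 genes comprised 15 synthesis enzymes, 4 genes that control sterol regulatory element-binding proteins (SREBPs), 3 sterol transport genes, and 4 genes of the liver X receptor (LXR) arm.

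The study took adipose-derived stromal cells, the fibroblast-like cells that grow out of fat in culture, from inguinal fat of 6- to 10-week-old C57BL/6J mice and grew them in DMEM with 15% fetal bovine serum. There was 1 array of cells with the genotype Wisp1 KO and 1 array of cells with the genotype WT. Per the labels, exons 1 to 5 of Wisp1, on chromosome 15, were floxed and the mice mated with a Cre-neo mouse, which gave offspring lacking the gene in the whole body, so the deletion was not limited to stromal cells. The number of mice and cultures behind each array is not given in the sources used here. With 1 array per genotype there was no replicate spread and no test, and each difference below compares these 2 arrays on the log2 scale, knockout minus wild type.

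Cholesterol is built from acetyl-CoA through mevalonate, isoprenoid diphosphates, squalene and lanosterol. When the sterol content of the endoplasmic reticulum is low, the escort protein SCAP carries SREBP2 to the Golgi, where it is cut and released to switch on the enzymes of this pathway, and INSIG proteins hold the complex back when sterols are plentiful. Oxysterols made from excess cholesterol activate LXRs, which drive export through ABC transporters and limit uptake, so the SREBP2 and LXR programmes usually move in opposite directions. In stromal cells of fat the pathway supplies membranes, and cells in serum also take up cholesterol from lipoproteins through endosomes.

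Wisp1, the targeted gene, was at 5.40 on the knockout array and at 7.79 on the wild-type array, a difference of -2.39. Whether all its probes lie in the floxed exons was not analysed here. Both arrays covered 65956 transcript clusters, with medians of 3.92 in the knockout and 3.93 in wild type. Stromal markers were present, with 9 of 10 measured markers reaching the median level of named genes (4.65 on the log2 scale) and Dpp4 below it. All 26 cholesterol genes passed this level, which kept 15072 named genes for comparison.

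Promoter sequence was available for 24 of the 30 genes, as windows from 250 bases before to 50 bases after the start site in RefSeq on the build GRCm38.p6. Windows of 6 genes are shown, each because of its place in the results: the HMG-CoA synthase gene Hmgcs1, the mevalonate kinase gene Mvk, the enzyme with the largest difference (Idi1), the SREBP target and brake Insig1, the only enzyme lower on the knockout array (Hsd17b7), and the efflux transporter Abca1. Capitals mark CCAAT, the box bound by the factor NF-Y that works with SREBPs, and CACNCCAC, a core of the sterol regulatory element, or its longer form TCACNCCAC where present (Hmgcs1), each on either strand. The windows are Hmgcs1 at chr13:119690101-119690400 (plus strand), Mvk at chr5:114444019-114444318 (plus strand), Idi1 at chr13:8885356-8885655 (plus strand), Insig1 at chr5:28071162-28071461 (plus strand), Hsd17b7 at chr1:169969156-169969455 (minus strand) and Abca1 at chr4:53159846-53160145 (minus strand).
Hmgcs1: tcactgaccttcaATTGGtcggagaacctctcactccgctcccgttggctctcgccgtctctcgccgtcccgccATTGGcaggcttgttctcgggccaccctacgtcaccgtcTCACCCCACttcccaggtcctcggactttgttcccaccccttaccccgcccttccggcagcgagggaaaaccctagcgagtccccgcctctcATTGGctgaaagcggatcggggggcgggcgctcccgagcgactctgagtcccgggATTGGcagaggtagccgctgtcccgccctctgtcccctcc
Mvk: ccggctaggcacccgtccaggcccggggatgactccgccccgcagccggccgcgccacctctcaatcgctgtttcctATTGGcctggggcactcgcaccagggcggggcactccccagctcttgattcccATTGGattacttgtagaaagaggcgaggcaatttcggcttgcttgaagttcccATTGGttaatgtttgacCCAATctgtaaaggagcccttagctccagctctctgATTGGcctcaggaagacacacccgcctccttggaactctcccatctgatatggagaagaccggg
Idi1: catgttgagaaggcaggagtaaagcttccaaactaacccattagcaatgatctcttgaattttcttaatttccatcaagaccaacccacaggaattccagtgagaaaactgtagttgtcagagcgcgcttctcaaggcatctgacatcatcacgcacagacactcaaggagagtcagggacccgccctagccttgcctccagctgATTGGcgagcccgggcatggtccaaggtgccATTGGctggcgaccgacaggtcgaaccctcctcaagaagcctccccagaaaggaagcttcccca
Insig1: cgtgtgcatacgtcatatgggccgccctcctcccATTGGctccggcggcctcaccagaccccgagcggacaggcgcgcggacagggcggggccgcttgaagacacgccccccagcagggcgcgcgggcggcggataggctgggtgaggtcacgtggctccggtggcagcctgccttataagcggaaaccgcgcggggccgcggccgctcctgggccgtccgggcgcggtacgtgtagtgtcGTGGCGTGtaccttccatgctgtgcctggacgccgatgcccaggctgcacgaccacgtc
Hsd17b7: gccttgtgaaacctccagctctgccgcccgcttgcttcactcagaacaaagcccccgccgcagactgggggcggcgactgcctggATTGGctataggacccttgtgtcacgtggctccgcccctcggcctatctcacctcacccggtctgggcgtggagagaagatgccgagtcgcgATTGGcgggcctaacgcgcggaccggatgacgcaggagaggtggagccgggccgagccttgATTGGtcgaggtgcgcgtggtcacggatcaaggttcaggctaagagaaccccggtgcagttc
Abca1: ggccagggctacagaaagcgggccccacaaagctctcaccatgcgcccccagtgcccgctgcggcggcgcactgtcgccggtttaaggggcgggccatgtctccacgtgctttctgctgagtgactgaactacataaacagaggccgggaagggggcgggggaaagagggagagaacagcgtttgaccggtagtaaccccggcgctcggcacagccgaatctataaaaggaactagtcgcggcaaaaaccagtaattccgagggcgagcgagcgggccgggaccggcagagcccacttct

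The longer core TCACNCCAC, which contains CACNCCAC, was found in the Hmgcs1 window alone among the 24 genes, from 137 to 129 bases before the start, against 1.43% of the 9520 genes with a window that reached the median level. CACNCCAC was found in Hmgcs1, Insig1 and Acat2, or 3 of 24 genes (12.5%), against 7.94% of the same background. CCAAT was more widespread, in 19 of 24 genes (79.2%) against 42.2%. It was present in 14 of 15 synthesis enzymes with a window, all but Acat2, and in 1 of 4 LXR-arm genes, Mylip. The GC box GGGCGG, bound by SP1, was found in 21 of 24 genes (87.5%) against 68.0%. A pattern of 2 copies of GGTCA with 4 bases between was in none of the 24 genes and in 0.0315% of the background. The LXR element of the DR4 type has 4 bases between copies of AGGTCA, a different spacing, so its presence was not analysed here. These matches describe letters in a window of fixed length, and binding was not measured. CCAAT did not separate the genes by their values: it was in 6 of the 6 windowed genes that were at least 1.2-fold higher on the knockout array, as 6.40% of all genes were, and in 11 of the 14 other measured ones, Hsd17b7 included. CACNCCAC was in 2 of the same 6 genes, Hmgcs1 and Insig1, and in 0 of the 14 others. With so few matches, a link between this core and the values was not tested.

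Synthesis enzymes were slightly higher on the knockout array. Of 15 measured enzymes 14 were higher and 1 was lower, against 56.9% of all 15072 named genes higher and 39.9% lower. The median difference was 0.23, against 0.03 over those genes. By 1.2-fold or more (0.26 on the log2 scale), 6 of the 15 enzymes were higher and 0 lower, against 6.40% and 4.27% of all genes. None reached 2-fold, which 0.166% of genes did in either direction, and none lay outside the central 95% of all genes, -0.33 to 0.37, so the enzymes shared a small difference rather than a large one. Above the upper quartile of all genes, 0.12, lay 11 of the 15.

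**Figure D1:**
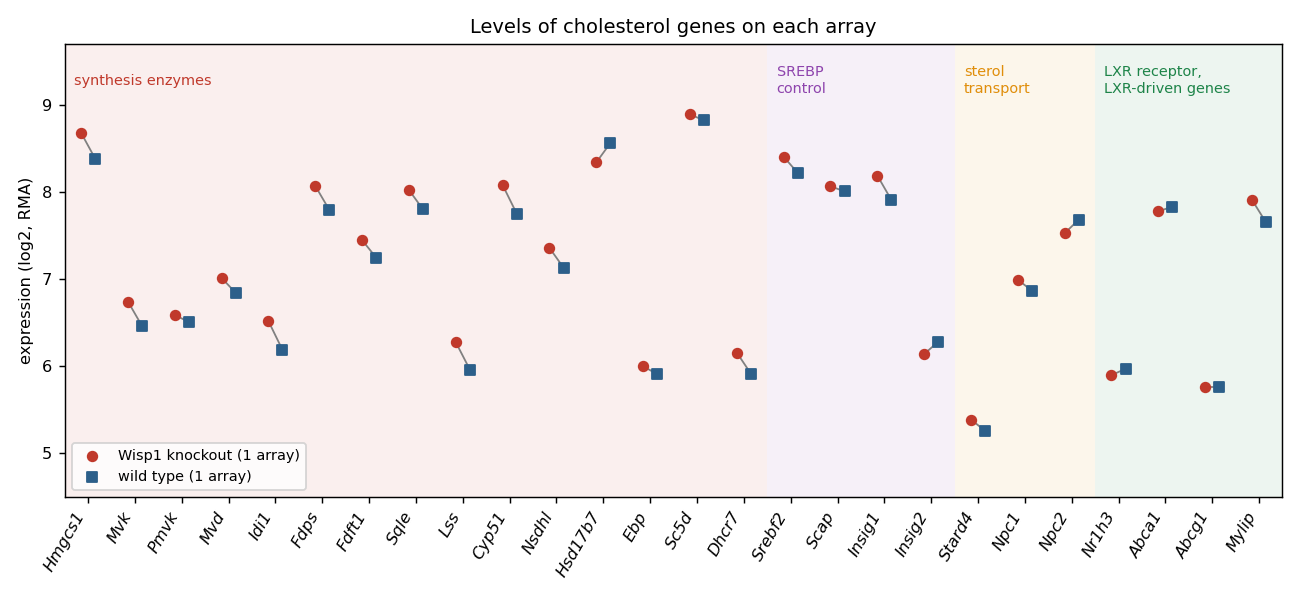
Expression (log2, RMA) of the 26 measured cholesterol genes on the Wisp1 knockout array (red circles) and the wild-type array (blue squares), 1 array each, with synthesis enzymes in pathway order. The knockout point lies above the wild-type point for 14 of 15 enzymes, and Hsd17b7 is the exception; levels of different genes are not comparable with each other.

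The 6 mevalonate-to-farnesyl enzymes were all higher, with a median difference of 0.28. Hmgcs1, the synthase that makes HMG-CoA, was at 8.68 in the knockout and 8.38 in wild type, a difference of 0.30 or 1.23-fold. Mvk, mevalonate kinase, was at 6.74 in the knockout and 6.46 in wild type (0.28). Hmgcs1 and Mvk thus differed by similar amounts. Pmvk, the next kinase, differed least of the group, at 6.59 in the knockout and 6.51 in wild type (0.08), near the middle of all genes. Mvd, the decarboxylase that forms isopentenyl diphosphate, was at 7.01 in the knockout and 6.84 in wild type (0.17). Idi1, the isomerase that produces the allylic starter unit, was at 6.52 in the knockout and 6.19 in wild type (0.33, or 1.26-fold), the largest difference among the 26 genes, and 3.61% of all genes had a higher one. Fdps, which joins these units to farnesyl diphosphate, was at 8.07 in the knockout and 7.79 in wild type (0.28).

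The 3 enzymes from farnesyl diphosphate to lanosterol were also higher, with a median of 0.22. Fdft1, squalene synthase and the first enzyme dedicated to sterols, was at 7.45 in the knockout and 7.25 in wild type (0.20). Sqle, the oxygen-dependent squalene epoxidase, was at 8.02 in the knockout and 7.80 in wild type (0.22), and it lies on chromosome 15, as Wisp1 does. Lss, the cyclase that closes the sterol rings, was at 6.27 in the knockout and 5.96 in wild type (0.31, or 1.24-fold).

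Beyond lanosterol the 6 measured enzymes differed less evenly, with a median of 0.16 and a range of -0.22 to 0.33. Cyp51, the lanosterol demethylase, stood at the upper end, at 8.08 in the knockout and 7.75 in wild type (0.33, or 1.25-fold). Nsdhl, a dehydrogenase of the demethylation steps that follow, was at 7.36 in the knockout and 7.13 in wild type (0.23), and Dhcr7, the terminal reductase whose substrate is also the precursor of vitamin D, was at 6.16 in the knockout and 5.91 in wild type (0.24). The isomerase gene Ebp (6.00 in the knockout and 5.91 in wild type, 0.09) and the desaturase gene Sc5d (8.89 in the knockout and 8.82 in wild type, 0.07) differed little, inside the central 50% of all genes. Hsd17b7, the ketosteroid reductase of this branch that also acts on oestrogens, was the exception at 8.34 in the knockout and 8.56 in wild type (-0.22), below 94.0% of all genes.

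The cluster of Msmo1, the methyl oxidase that follows Cyp51, lists Sc4mol as well, an older symbol of the same gene in the RefSeq table. It was at 6.38 in the knockout and 6.03 in wild type (0.35, or 1.28-fold). That value is higher than any of the 26, and counting it would make 7 of 16 enzymes at least 1.2-fold higher. The cluster of Tm7sf2, a sterol reductase, is shared with the unrelated gene Vps51, and its 0.05 cannot be assigned to either.

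**Figure D2:**
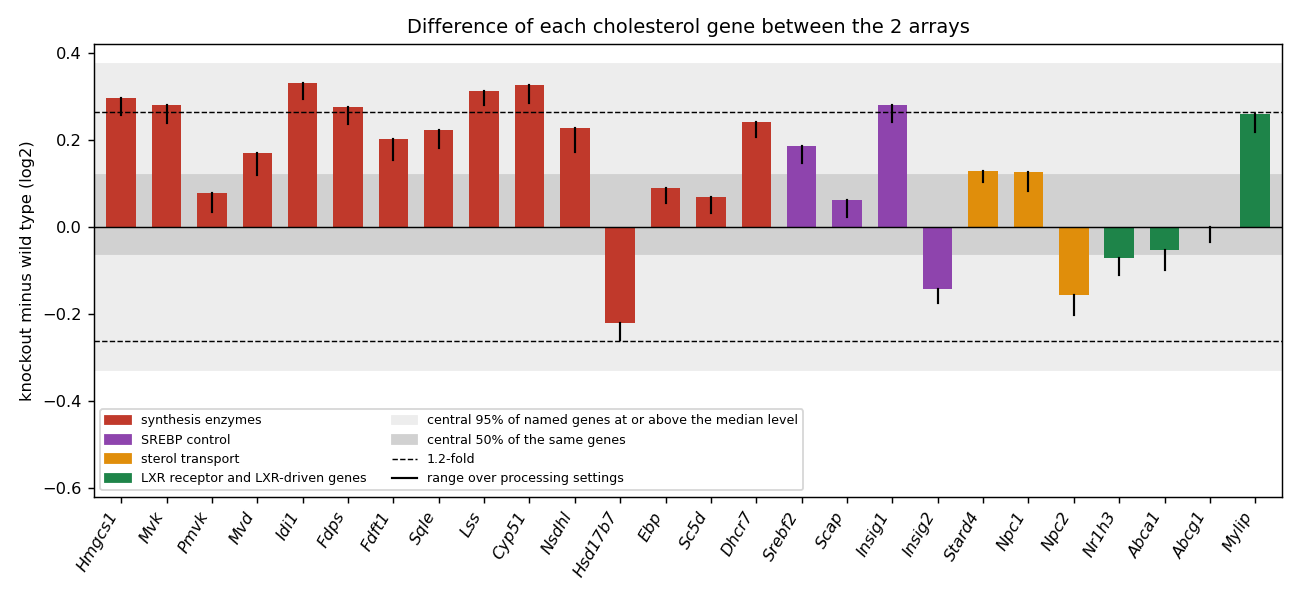
Knockout minus wild-type difference (log2) of each measured cholesterol gene, coloured by role, with grey bands for the central 95% and 50% of the 15072 named genes that passed the level filter, dashed lines at 1.2-fold and black lines for the range over processing settings. Bars for Idi1, Cyp51 and Lss stay past 1.2-fold over their whole range, Abcg1 is at 0, and no bar leaves the 95% band.

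The genes that control SREBP2 did not share 1 direction. Insig1, the retention protein that is itself a strong SREBP target, was at 8.19 on the knockout array and 7.91 on the wild-type array (0.28, or 1.21-fold). Insig2, its relative that is not known as an SREBP target, was at 6.14 in the knockout and 6.28 in wild type (-0.14), so the INSIG genes went opposite ways. Srebf2, which encodes SREBP2 and is also on chromosome 15, was at 8.41 in the knockout and 8.22 in wild type (0.19). Scap, the escort, was at 8.07 in the knockout and 8.01 in wild type (0.06). The median of the 4 was 0.12, and Insig1 was the only one past 1.2-fold, where 6.40% of all genes were higher and 4.27% lower.

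Sterol transport genes were likewise mixed. At 1.2-fold 0 of the 3 were higher and 0 lower, against 6.40% and 4.27% of all genes. A count of 0 in 3 genes does not set them apart from those shares. Stard4, a soluble carrier that brings cholesterol to the endoplasmic reticulum and is an SREBP target, was at 5.39 in the knockout and 5.26 in wild type (0.13). Npc1 and Npc2 work together to release cholesterol taken up with lipoproteins from late endosomes, yet Npc1 was higher, at 6.99 in the knockout and 6.87 in wild type (0.13), and Npc2 was lower, at 7.53 in the knockout and 7.68 in wild type (-0.16). The median of the 3 was 0.13 and their mean 0.03.

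Genes of the LXR arm did not follow the enzymes. Abca1, which loads cholesterol onto lipid-poor apolipoproteins, was at 7.78 on the knockout array and 7.83 on the wild-type array (-0.05). Abcg1, which exports cholesterol to mature lipoprotein particles, had the same value of 5.76 on both arrays, as did 3.12% of all genes. Nr1h3, the LXR alpha receptor gene, was at 5.90 in the knockout and 5.97 in wild type (-0.07). These 3 lay in or next to the middle of all genes, since the lower quartile was -0.06. Mylip, an LXR-induced ubiquitin ligase that limits lipoprotein uptake, stood apart from them at 7.91 in the knockout and 7.65 in wild type (0.26), just short of the 1.2-fold line, and 6.60% of all genes had a higher difference. Mylip is therefore an LXR-driven gene whose value resembled those of the synthesis enzymes. The median of the 4 genes was -0.03 and their mean 0.03, and the mean was positive through Mylip alone.

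Set side by side, the 22 synthesis, SREBP control and transport genes had a median difference of 0.19, with 19 higher and 3 lower, and the 4 LXR-arm genes had -0.03, with 1 higher, 2 lower and 1 equal. The medians were 0.22 apart, and 0.12 apart when means were used. At 1.2-fold the counts were 7 of 22 and 0 of 4, against 6.40% of all genes, and a count of 0 in 4 genes does not set the LXR arm apart from that share. With 4 genes in the LXR arm and 1 array per genotype, whether the arms differ beyond array-to-array variation was not tested.

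**Figure D3:**
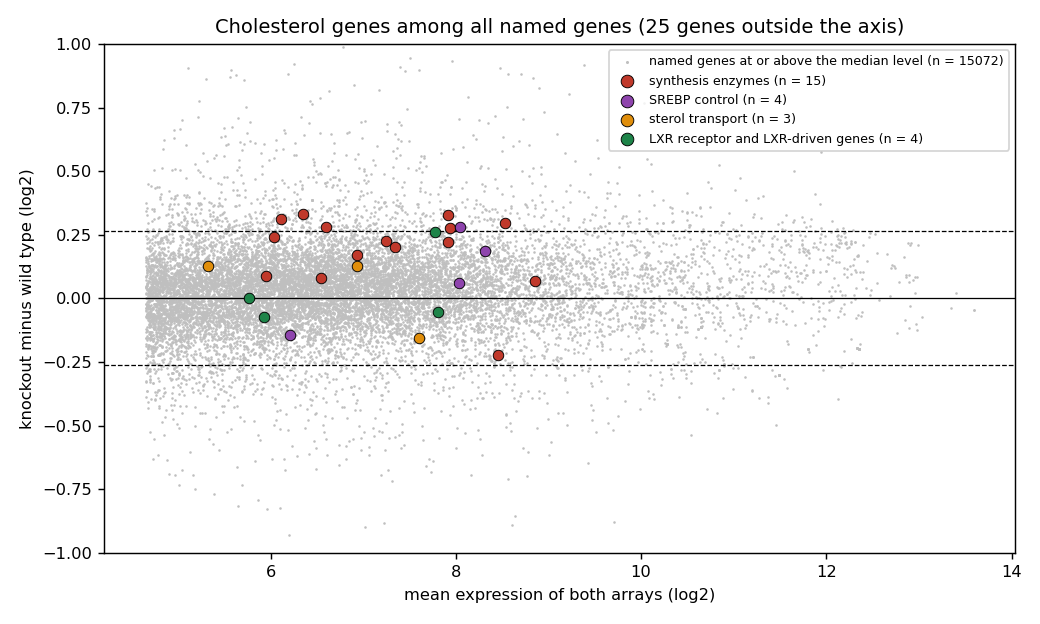
Knockout minus wild-type difference against mean expression of both arrays (both log2) for 15072 named genes (grey) and the 26 cholesterol genes (coloured by role), with dashed lines at 1.2-fold. Cholesterol genes lie within the grey cloud, most synthesis enzymes in its upper part, and 25 genes with a difference of at least 2-fold are off the axis.

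Enzymes that use the same isoprenoids for other products did not share the shift. Of 14 measured isoprenoid-branch genes 5 were higher and 7 lower, against 56.9% and 39.9% of all genes, and the median was -0.01. By 1.2-fold or more 0 were higher and 0 lower, against 6.40% and 4.27% of all genes. A count of 0 in 14 genes does not set this list apart from those shares. The largest differences were in Pggt1b (-0.16) and Fnta (-0.16), subunits of protein prenyltransferases. Fatty acid synthesis genes, which SREBP1 drives, were in between, with 10 of 17 higher, 5 lower, a median of 0.09 and 3 past 1.2-fold. Those were the elongase gene Elovl5 (0.31), the acetyl-CoA carboxylase gene Acaca (7.08 in the knockout and 6.79 in wild type, 0.29) and the glycerol-phosphate acyltransferase gene Gpam (7.04 in the knockout and 6.78 in wild type, 0.26). The fatty acid synthase gene Fasn differed by -0.03. Under quantile normalization and under loess centring 1 of the 17 genes was higher by 1.2-fold, against 4.88% and 4.95% of all genes.

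Other genes of sterol sensing gave no common direction. Among all genes 56.9% were higher and 39.9% lower, and 6.40% and 4.27% by 1.2-fold or more. Of 9 further genes of SREBP processing 4 were higher and 5 lower (median -0.02), with the ubiquitin ligase gene Rnf139 highest at 0.25 and Pgrmc2, a haem-binding membrane protein gene, lowest at -0.15. Of 13 lipoprotein and scavenger receptor genes 6 were higher and 6 lower (median 0). The very-low-density lipoprotein receptor gene Vldlr was the only one past 1.2-fold, at 6.58 in the knockout and 6.23 in wild type (0.35), and the sorting receptor gene Sort1 was lowest at -0.26. Under quantile normalization and under loess centring 1 of the 13 was higher by 1.2-fold and 2 were lower.

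Among 23 further sterol transport genes 13 were higher and 9 lower, near the 56.9% and 39.9% of all genes. The median was 0.05, but -0.0037 under quantile normalization. By 1.2-fold or more 3 were higher and 2 lower, against 6.40% and 4.27% of all genes. Past 1.2-fold on the higher side were the lipid transfer protein gene Scp2 (7.35 in the knockout and 7.06 in wild type, 0.29), the SREBP target Tmem97 (8.18 in the knockout and 7.90 in wild type, 0.28), whose product binds NPC1, and the sterol carrier gene Gramd1b (6.54 in the knockout and 6.28 in wild type, 0.27). On the lower side were the caveolin gene Cav1 (8.96 in the knockout and 9.27 in wild type, -0.30), whose product binds membrane cholesterol, and the ester hydrolase gene Nceh1 (4.70 in the knockout and 4.97 in wild type, -0.26). Under quantile normalization and under loess centring 0 of the 23 were higher by 1.2-fold and 2 were lower.

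Among the lipid gene lists, the oxysterol enzymes held the largest differences of single genes. Cyp7b1, which hydroxylates and clears side-chain oxysterols, was at 6.79 on the knockout array and 5.60 on the wild-type array (1.18, or 2.27-fold). Ch25h, which makes such an oxysterol, was at 5.83 in the knockout and 6.46 in wild type (-0.63). The gene that makes an oxysterol ligand of LXR was thus lower, and the gene that removes it was higher. Oxysterols were not measured on these arrays, and any part of Ch25h and Cyp7b1 in the LXR-arm values was not tested. The other 5 genes of this list lay between -0.04 and 0.08, and the list's median was -0.0031. Of 15 further LXR partners and targets 8 were higher and 5 lower (median 0.01). The coactivator gene Ncoa1 led them at 7.39 in the knockout and 6.86 in wild type (0.53), and Apoc1, below the median level on both arrays, was lowest (-0.35). The LXR targets Pltp (0.16), Smpdl3a (0.14) and Lpcat3 (0.08) were slightly higher and Scd1 was not (-0.03).

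**Figure D4:**
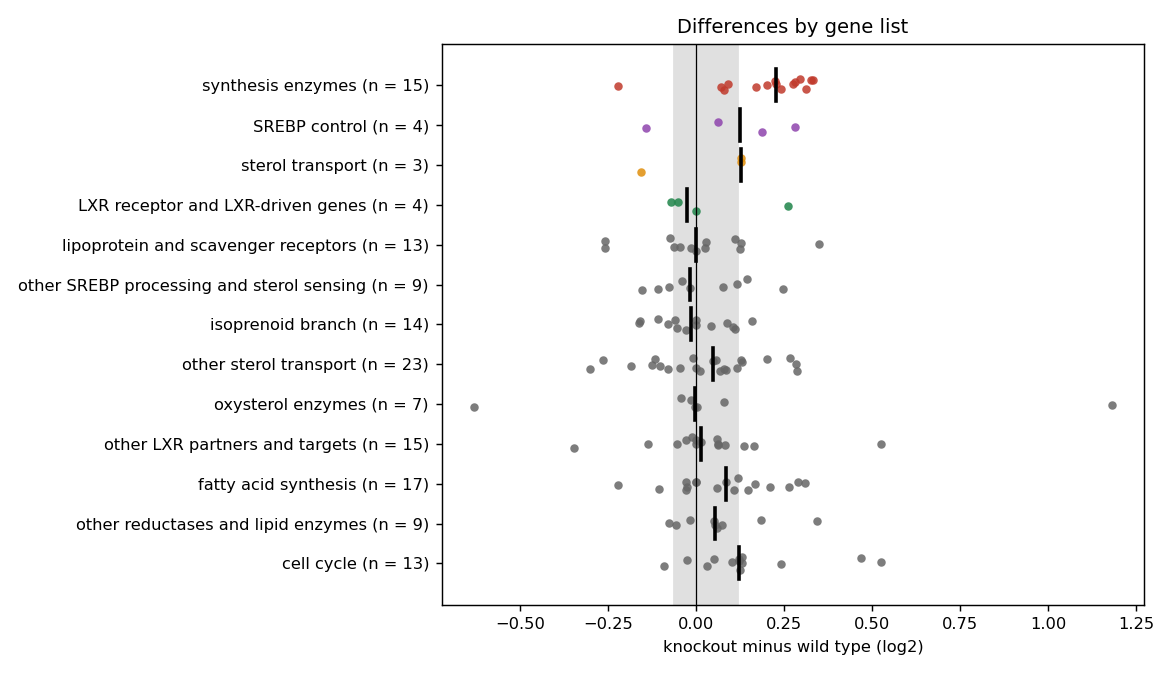
Knockout minus wild-type difference (log2) of each measured gene in the 4 cholesterol gene groups (coloured) and in 9 other lists (grey points), with the median of each list as a black line and a grey band for the central 50% of the 15072 named genes. Among the lists plotted the synthesis enzymes have the highest median, 0.23, while stromal and macrophage markers, not plotted, each had 0.21, and Cyp7b1 and Ch25h are the outermost points of the oxysterol list.

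Among 9 measured genes of other reductases and lipid enzymes 6 were higher and 3 lower (median 0.05). The acetoacetyl-CoA thiolase gene Acat1, a mitochondrial enzyme, was at 8.53 in the knockout and 8.18 in wild type (0.34), and Mmab, a cobalamin gene that shares its promoter region with Mvk, was at 6.93 in the knockout and 6.74 in wild type (0.19). Lbr, which encodes a nuclear membrane protein with sterol reductase activity, differed by 0.05.

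Cell cycle genes and markers of other cells also differed between the arrays, in directions that varied by list. Their part in the differences of the cholesterol genes was not tested. Of 13 cell cycle genes 11 were higher, with a median of 0.12, led by Ccnb2 (0.52) and Mki67 (0.47). Of 13 macrophage markers, a cell type rich in LXR and ABC transporters, 10 were higher and 3 lower (median 0.21), and their summed linear signal was 567 on the knockout array and 377 on the wild-type array. By 1.2-fold or more 6 of the 13 were higher and 0 lower, against 6.40% and 4.27% of all genes. They were Lyz2 (1.29), Fcer1g (0.90), Ctss (0.63), Cd68 (0.58), Tyrobp (0.51) and C1qb (0.33). Cd14 was lowest (-0.18), and 7 of the 13 reached the median level. The receptor genes Adgre1 (3.25 in the knockout and 3.33 in wild type) and Csf1r (4.62 in the knockout and 4.61 in wild type) were below it on both arrays. Of 7 adipocyte markers 5 were lower and 2 higher, with a summed linear signal of 162 in the knockout and 191 in wild type, and Retn (-1.08) and Adipoq (-0.64), both below the median level on the mean of the arrays, were lowest and Lep (0.05) highest. Of 7 smooth muscle and pericyte markers 5 were lower and 2 higher (median -0.24), from -0.69 (Mcam) to 0.41 (Des), summing to 8483 in the knockout and 9599 in wild type. In bulk RNA, fewer cells of a type and less RNA per cell cannot be told apart.

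Of the remaining lists, 5 of 7 endothelial markers were higher and 2 lower, with summed linear signals of 167 in the knockout and 153 in wild type, and all 7 ranged from -0.14 (Tek) to 0.80 (Cdh5). Cdh5 was at 4.62 in the knockout and 3.81 in wild type, and Emcn at 4.04 in the knockout and 3.24 in wild type (0.80), both past 1.2-fold, while Pecam1 (0.08) and Kdr (0.07) differed little. These 4 were below the median level on both arrays. Of 5 epithelial markers 2 were higher and 3 lower (140 in the knockout and 145 in wild type), from -0.35 (Krt18) to 0.04 (Krt8). Krt18, Epcam and Cdh1 were below the median level. Of 5 lymphocyte markers 2 were higher and 2 lower (59.2 in the knockout and 56.5 in wild type), from -0.25 (Ms4a1) to 0.28 (Cd79a), and all were below the median level. Of 10 stromal markers 9 were higher and 1 equal, summing to 11820 in the knockout and 9123 in wild type, with a median of 0.21, close to the 0.23 of the synthesis enzymes. Past 1.2-fold were Lum (0.60), Col1a2 (0.52), Col1a1 (0.50), Col3a1 (0.43) and Dcn (0.32), and Dpp4 was at 0. Whether the stromal difference has a part in that of the enzymes was not tested.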

How the data were processed

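Total RNA of Wisp1 knockout and wild-type cells, 1 array each, was labelled with the Affymetrix GeneChip WT PLUS kit, per the labels. The values deposited by the authors are log2 expression per transcript cluster, made with RMA in Partek per the submitters' processing notes. Versions, the arrays normalized together and the build of the array design are not given in the sources used here. RMA equalizes arrays and compresses differences of dim genes.

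Clusters were named through the platform annotation, which lists 1 symbol for 30604 clusters, several for 2146 and none for 33206, and 827 symbols were updated by Entrez ID through RefSeq (GRCm38.p6). The cluster with the highest mean was kept per gene. All 26 measured cholesterol genes had 1 cluster. Differences were taken with no further normalization, and counts used 1.2-fold and genes with a mean at or above 4.65. The number of arrays limits the precision. No test was possible. Motifs were searched on both strands.

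The named genes were the 30 listed, Wisp1, and from each other list those past 1.2-fold, or the 2 most different genes where fewer passed; markers of cell types were given as counts, summed levels and the genes at the ends. A few further genes, such as Fasn, Pltp, Smpdl3a, Lpcat3, Scd1, Lbr and further markers, were chosen after their values were seen. Insig1 was left out of the fatty acid list, where it is a listed gene. The members and lists were chosen with earlier results of these data known. Alternatives were quantile normalization, loess centring (span 0.3), median centring, no level filter, the mean over clusters, clusters with several symbols kept, other folds and means of lists. Counts and medians were tested on simulated data, shuffled differences with planted ones larger than that of any measured cholesterol gene. Planted differences as small as those of the cholesterol genes were not tried. Tools were matplotlib 3.10.9, statsmodels 0.14.6, pandas 2.3.3, numpy 2.4.6 and Python 3.11.15.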

Additional observations from a re-analysis of the deposited data

How the results depend on the processing

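The 7 genes at least 1.2-fold higher became 4 under quantile normalization (Cyp51, Hmgcs1, Idi1 and Lss) and 3 under loess centring (Cyp51, Idi1 and Lss), while among all named genes the higher and lower shares, 6.40% and 4.27%, became 4.88% and 5.57% under quantile normalization and 4.95% and 5.42% under loess centring. At 1.1-fold 14 of the 26 genes were higher and 3 lower, against 21.4% and 12.5% of all genes, so the lower count was near that share. At 1.5-fold and at 2-fold 0 were higher, against 0.717% and 0.0663% of all genes. The synthesis enzymes had a median of 0.18 after quantile normalization, 0.19 after loess centring, and a mean of 0.19. The 22 genes stayed above the LXR arm, by 0.22 with quantile normalization and 0.21 with loess centring. Under every setting each of the 26 differences moved by less than 0.1, and no sign turned, although Abcg1, at 0 as deposited, became -0.04 by quantile normalization and -0.02 by loess centring. With no filter, median centring or the mean over clusters, the values of the 26 genes were identical, because all 26 passed the filter and had 1 cluster each and the median of all named genes was 0. The shares of all genes did move with no filter, to 4.70% higher and 5.35% lower by 1.2-fold over 30142 genes, with 47.0% higher at all against 56.9% as reported. No paired analysis was possible because each genotype has 1 array, and replicates could not be left out for the same reason.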
